A study of Mus musculus with 4 samples.

Results

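The genes followed here are 8 of the thymic mesenchyme, Tcf21, Shisa3, Gata6, Ntrk2, Akap12, Nr2f2, Ebf1, and Ndufa4l2, out of 27998 genes in the count tables, and they were read by cell type and library. They were chosen by their measured levels, which were low in the mesenchyme of Tbx1neo2/neo2 embryos given carrier, so that contrast is a description of the choice and supports nothing. Single-cell RNA sequencing was performed on thymic lobes of E13 to 13.5 mouse embryos, with 1 library each for Tbx1+/+ carrier, Tbx1neo2/neo2 carrier, Tbx1neo2/neo2-minoxidil, and Tbx1neo2/neo2-PGE2. Pregnant mice received carrier (5% ethanol), minoxidil, or prostaglandin E2 (PGE2) on E8, E9, and E10, and the mutant embryos came from crosses of Tbx1+/neo2 mice. Tbx1 encodes a T-box transcription factor of the pharynx, and neo2 is a hypomorphic allele of it in which an intronic neomycin cassette leaves some normal transcript. Lobes were pooled where the tissue was hypoplastic, and the number of embryos behind each library is not given in the sources used here. With 1 library per group there was no replicate check and no test, so every interval given here covers counting error only.

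In mm10 coordinates, Tcf21 lies at chr10:22817281-22820174 on the minus strand, Akap12 at chr10:4266380-4359470 and Ndufa4l2 at chr10:127514967-127517154 on the plus strand, so 3 of the 8 genes are on chromosome 10, far from each other. Shisa3 is at chr5:67607882-67623552 and Ntrk2 at chr13:58806569-59133970, both on the plus strand. Nr2f2 is at chr7:70351944-70366735 on the minus strand, Ebf1 at chr11:44617317-45008091 on the plus strand, and Gata6 at chr18:11052064-11085635 on the plus strand.

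The mesenchyme of the fetal thymus forms the capsule, the connective tissue, and the wall of the vessels, and supplies growth factors to the epithelium. Much of it comes from the neural crest. Tcf21, Gata6, Nr2f2, and Ebf1 encode transcription factors: TCF21 is a basic helix-loop-helix protein of organ mesenchyme, GATA6 a zinc finger protein of the heart and endoderm, NR2F2 (COUP-TFII) an orphan nuclear receptor of veins and stroma, and EBF1 a factor of B cells that is also made in stroma. Ntrk2 encodes TrkB, the receptor for brain-derived neurotrophic factor. SHISA3 holds back WNT and FGF receptors on their way to the cell surface, AKAP12 anchors protein kinase A, and NDUFA4L2 is a mitochondrial protein that hypoxia induces in many cells. Hox genes mark position along the body axis, with higher paralog numbers used further toward the tail.

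The mutant-carrier mesenchyme differed most in Tcf21 and Shisa3, and the promoters of these genes and of Nr2f2 are shown to set their sequences beside those levels. Each is the run of 250 bases before the RefSeq transcription start (mm10), written 5′ to 3′ on the strand of the gene, with capitals at matches to an E box (CANNTG), a GATA site with its flanks (AGATAA, also with T first or G last), or the core of the hypoxia response element (ACGTG, also with G first), on either strand.
Tcf21 (chr10:22820144-22820393, minus): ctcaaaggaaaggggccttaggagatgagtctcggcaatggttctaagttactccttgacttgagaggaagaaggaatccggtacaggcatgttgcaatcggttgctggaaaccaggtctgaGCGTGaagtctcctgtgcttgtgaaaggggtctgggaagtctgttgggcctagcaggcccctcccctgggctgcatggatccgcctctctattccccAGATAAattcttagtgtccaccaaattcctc
Shisa3 (chr5:67607633-67607882, plus): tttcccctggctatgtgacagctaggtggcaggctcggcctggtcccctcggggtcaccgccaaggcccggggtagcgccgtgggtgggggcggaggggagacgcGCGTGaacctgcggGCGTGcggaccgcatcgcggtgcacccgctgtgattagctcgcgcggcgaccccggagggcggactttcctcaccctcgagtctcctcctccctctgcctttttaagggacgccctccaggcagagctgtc
Nr2f2 (chr7:70366747-70366996, minus): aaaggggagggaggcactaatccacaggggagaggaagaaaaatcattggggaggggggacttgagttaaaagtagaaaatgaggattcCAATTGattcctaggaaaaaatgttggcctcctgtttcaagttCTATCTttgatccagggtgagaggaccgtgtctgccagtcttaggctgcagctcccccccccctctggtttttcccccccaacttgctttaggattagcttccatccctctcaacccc
Tcf21 held 1 GATA match and 1 hypoxia core, Shisa3 2 hypoxia cores, and Nr2f2 1 E box and 1 GATA match. The gene span given above for Tcf21 begins at 22820174 on the minus strand, inside its run, so the 2 annotations differ in the start. The GATA match of Tcf21 lies within that gene span. The GC content of these runs was 52.4% for Tcf21, 69.6% for Shisa3, and 50% for Nr2f2.

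Promoters were given for 5 of the 8 genes, and the search was extended to the full window from 250 bases before to 50 bases after the start. An E box was found in 72.3% of all 32851 promoters of that length, a GATA site in 29.8%, a hypoxia core in 43.8%, and a CCAAT box (CCAAT) in 37.4%. The nuclear receptor element (AGGTCA, found in 16.3% of promoters), the TATA box (TATAAA, in 13.6%), and the EBF palindrome (TCCCNNGGGA, in 0.904%) were in none of the windows of Tcf21, Shisa3, Ntrk2, Nr2f2, and Ebf1. Ntrk2 had 3 hypoxia cores and 1 E box, and the downstream window of Ebf1 had 3 hypoxia cores and 2 E boxes while its upstream window had no match to any of the 7 motifs. These are letter matches only, and no motif was shared by all 5 genes.

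After cells with fewer than 200 genes or more than 10% mitochondrial UMIs were left out, 11474 Tbx1+/+ carrier, 10683 mutant-carrier, 3201 minoxidil, and 4152 PGE2 cells remained, with medians of 14108 to 41084 UMIs per cell. No pair of libraries shared more than 0.482% of the barcodes of the smaller one. Of 20 clusters, 7 were mesenchymal, found on variable genes from which the 8 genes, related genes, and Hox genes had been left out. They held 2864 Tbx1+/+ carrier cells, 6577 mutant-carrier cells, 1005 minoxidil cells, and 877 PGE2 cells, or 25.0%, 61.6%, 31.4%, and 21.1% of the cells kept. All 7 mesenchymal markers, among them Col1a1, Col3a1, and Pdgfra, were above 10 CPM (counts per 1000000 UMIs of the cells summed) in every library. Tbx1 itself was at 2.02 to 3.62 CPM in these cells and does not check the genotype. In fibroblast-like cells it was at 10.2 CPM in Tbx1+/+ carrier, 2.84 CPM in the mutant carrier, 11.5 CPM with minoxidil, and 5.30 CPM with PGE2. The mutant-carrier library stood apart from the other 3: without integration, it gave 3618 of 3636, 946 of 985, and all 956 cells of 3 mesenchymal clusters.

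The mix of mesenchymal cells differed between the mutant carrier and the other 3 libraries. The 7 clusters were called by their markers fibroblast-like, proliferating, pericyte-like, smooth-muscle-like, mesothelial-like, and myogenic-like, plus a cluster led by Col2a1, Col9a1, and Sox9. Fibroblast-like cells were 49.8% of the mutant-carrier mesenchyme against 18.8% in Tbx1+/+ carrier, 24.2% with minoxidil, and 26.8% with PGE2. Pericyte-like cells were 4.32% against 27.0%, 22.2%, and 23.7%. Mesothelial-like cells were 0.806% against 9.32%, 6.07%, and 2.96%, and 312 of the 328 myogenic-like cells were from the mutant-carrier library. The Col2a1 Sox9 cluster did not hold the same cells in all libraries, since its Col2a1 level was 626 CPM in the mutant carrier and at most 1.23 CPM in the other 3. In smooth-muscle-like cells the markers were uneven in the mutant carrier and Tbx1+/+ carrier. Eln (elastin) was at 38.9 CPM and 1864 CPM and Myh11 (smooth muscle myosin) at 5.21 CPM and 40.0 CPM, while Acta2 (smooth muscle actin) was at 1862 CPM and 1889 CPM and Cnn1 (calponin) at 147 CPM and 101 CPM.

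The summed level of the 9 chondrocyte markers measured in all mesenchymal cells was 1409 CPM in the mutant carrier and 95.8 to 142 CPM in the other 3 libraries. The 7 pericyte markers summed to 96.8 CPM in the mutant carrier and 379 to 606 CPM elsewhere. Neuron markers summed to 34.0 CPM in the mutant carrier and 247 CPM, 246 CPM, and 189 CPM in Tbx1+/+ carrier, minoxidil, and PGE2, and mesothelial markers to 19.1 CPM and 42.6 to 152 CPM. Only 1 of the 4 neuron markers was above 10 CPM in each library, so that sum does not show neurons. Smooth muscle markers summed to 2611 CPM with PGE2 and 441 to 746 CPM elsewhere. The part of these differences in the levels below was not tested, beyond holding the shares of the named subtypes fixed, as described further on. Erythroid markers summed to 1312 to 3116 CPM in the mesenchyme. Markers of hematopoietic cells summed to at most 14.5 CPM in the mesenchyme of any library, and those of epithelial cells to 106 CPM in Tbx1+/+ carrier and 36.4 to 50.9 CPM in the others.

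In all mesenchymal cells, Tcf21 was at 92.9 CPM in Tbx1+/+ carrier, 8.86 CPM in the mutant carrier, 101 CPM with minoxidil, and 41.7 CPM with PGE2. Shisa3 was at 131 CPM, 13.1 CPM, 152 CPM, and 72.7 CPM in the same order. Both were lowest in the mutant carrier, and the PGE2 library lay between it and the other pair. Ndufa4l2 was at 113 CPM, 15.4 CPM, 90.0 CPM, and 94.9 CPM, with the mutant carrier alone far down.

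The other 5 genes kept more of their level in the mutant carrier. Gata6 was at 257 CPM in Tbx1+/+ carrier, 96.8 CPM in the mutant carrier, 254 CPM with minoxidil, and 197 CPM with PGE2, and Nr2f2 at 175 CPM, 63.3 CPM, 186 CPM, and 157 CPM. Ebf1 was at 364 CPM, 158 CPM, 386 CPM, and 389 CPM in the same order. For these 3 transcription factor genes the mutant carrier lay below the other 3 libraries, with no overlap of intervals. Ntrk2 was at 108 CPM, 46.1 CPM, 113 CPM, and 91.9 CPM, and Akap12 at 564 CPM, 260 CPM, 589 CPM, and 742 CPM, the only one of the 8 with its top level in the PGE2 library and clear of the next by its interval.

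**Figure D1:**
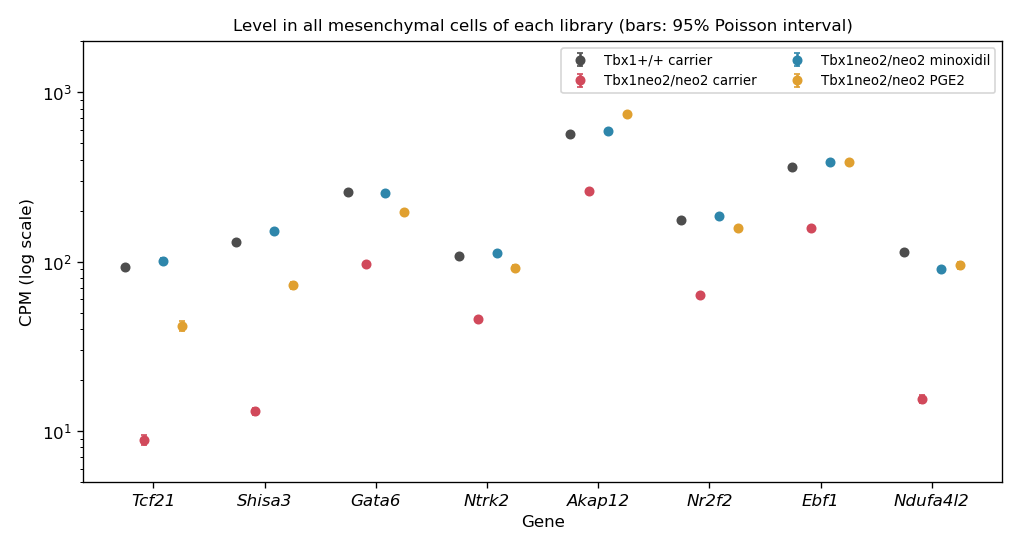
Level in CPM (log scale) of each gene in all mesenchymal cells of the 4 libraries, with 95% Poisson intervals that cover counting error only and are mostly smaller than the points. The mutant-carrier point is the lowest for all 8 genes, from 8.86 for Tcf21 to 260 for Akap12.

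A gene was called where its levels differed by at least 1.5-fold and the Poisson intervals did not overlap. For the contrast that chose them, all 8 genes were called lower in the mutant carrier, while 11.9% of the 16113 genes holding 20 or more UMIs over the pair of libraries were called lower and 11.9% higher. The log2 ratio of mutant to Tbx1+/+ carrier was -3.39 (95% interval -3.49 to -3.29) for Tcf21, -3.33 for Shisa3, and -2.88 for Ndufa4l2, and ran from -1.47 for Nr2f2 to -1.12 for Akap12 among the rest. The median over the 8 genes was -1.44 beside a median of 0.01 over all genes compared. Among those genes, ordered from the lowest ratio, Tcf21 was at place 47, Shisa3 at 55, and Ndufa4l2 at 123, and the other 5 lay between 808 for Nr2f2 and 1146 for Akap12.

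Both drug libraries were set against the same mutant-carrier library, so neither comparison is independent of the choice of genes or of the other. All 8 genes were called higher with minoxidil (12.6% of 15904 genes were called higher) and all 8 with PGE2 (11.6% of 15776 genes). The log2 ratio for minoxidil was 3.52 for Tcf21, 3.55 for Shisa3, and 2.54 for Ndufa4l2, and for PGE2 2.23, 2.48, and 2.62. The lowest ratio was 1.18 for Akap12 with minoxidil and 0.996 for Ntrk2 with PGE2. The median of the 8 was 1.48 and 1.41.

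Against Tbx1+/+ carrier, which they share as reference, the drug libraries differed less. None of the 8 genes was called with minoxidil, where 1.66% of 15022 genes were called lower and 2.53% higher, and their log2 ratios ran from -0.33 (95% interval -0.40 to -0.27) for Ndufa4l2 to 0.21 for Shisa3. With PGE2, Tcf21 at -1.16 (95% interval -1.26 to -1.06) and Shisa3 at -0.85 (-0.93 to -0.78) were called lower, beside 5.17% of 14827 genes. The remaining 6 ran from -0.39 for Gata6 to 0.40 for Akap12.

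The 2 drugs are unrelated in structure, minoxidil being a small opener of potassium channels and PGE2 a prostanoid, and each was given at 1 dose of its own, so that their levels are set side by side. Tcf21 at a log2 ratio of PGE2 to minoxidil of -1.28 and Shisa3 at -1.07 were called lower with PGE2, beside 3.93% of 14358 genes. Akap12 was at 0.33, Gata6 at -0.37, Ntrk2 at -0.29, and Nr2f2 at -0.25, while Ebf1 was at 0.01 (95% interval -0.03 to 0.05) and Ndufa4l2 at 0.08 (-0.0033 to 0.156).

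By cell, after each was thinned to 5000 UMIs, Tcf21 was detected in 28.0% of Tbx1+/+ carrier, 2.46% of mutant-carrier, 29.2% of minoxidil, and 16.5% of PGE2 mesenchymal cells. Akap12, the most widely found, was detected in 79.6%, 38.5%, 78.7%, and 84.8%, and Gata6 in 66.8%, 28.4%, 65.6%, and 50.8%. The mutant carrier was thus lower in the share of cells as well as in the summed level. Without thinning the shares for Tcf21 were 47.0%, 5.08%, 50.9%, and 33.0%. Hematopoietic cells were read as a floor, and the source of the counts in them was not tested. That floor was well below most of these shares. Thinned alike, Tcf21 was found in at most 1.15% and Akap12 in at most 5.31% of the hematopoietic cells of any library. The mutant-carrier share for Tcf21 stood closest to that background, which in the same library was 0.208%.

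At least 3 of the 8 genes were found in 81.8% (95% Clopper-Pearson interval 80.4 to 83.2) of Tbx1+/+ carrier, 19.9% (19.0 to 20.9) of mutant-carrier, 81.0% (78.4 to 83.4) of minoxidil, and 73.9% (70.8 to 76.8) of PGE2 mesenchymal cells. None of the 8 was found in 23.0% of mutant-carrier cells and in 0.910 to 1.41% of the cells of the other libraries. Thinning left out 17, 143, 16, and 23 shallower cells. Among hematopoietic cells the share with at least 3 genes was 0.345 to 2.08%.

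**Figure D2:**
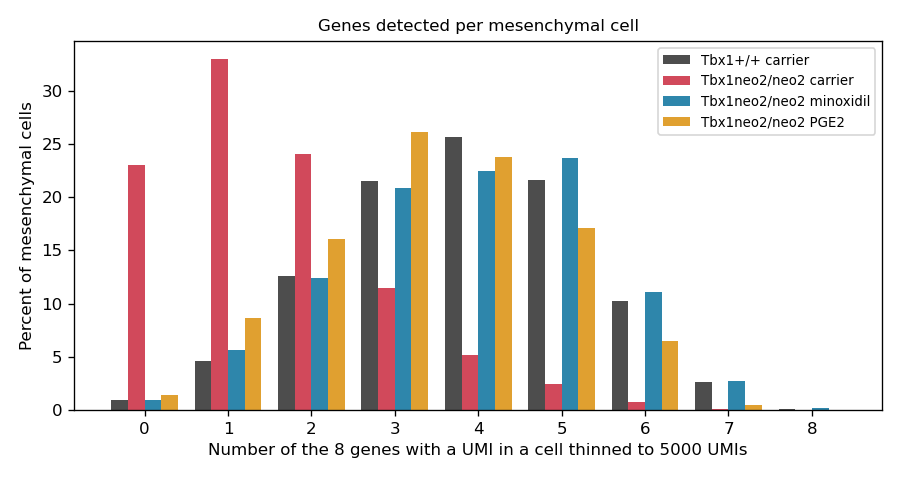
Percent of mesenchymal cells of each library (bars) by the number of the 8 genes with a UMI after thinning to 5000 UMIs per cell. The mutant-carrier cells are mostly at 0 to 2 genes, with 33.0% at 1 gene, while the other 3 libraries have their highest bars at 3 to 5 genes.

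Which of the genes were found in the same cells differed by pair and by library. In the mutant carrier, 158 mesenchymal cells had a Tcf21 UMI. Shisa3 was found in 31.0% against 3.82% of the cells with and without Tcf21, Ndufa4l2 in 36.7% against 3.30%, and Nr2f2 in 62.7% against 20.03%. In Tbx1+/+ carrier the shares with and without Tcf21 were 42.7% against 38.4% for Shisa3, 33.8% against 20.4% for Ndufa4l2, and 57.6% against 47.9% for Nr2f2. Ntrk2 was found less often in cells with Tcf21 than in cells without it in all 4 libraries, at 22.8% against 34.7% in Tbx1+/+ carrier, 9.49% against 15.6% in the mutant carrier, 18.7% against 36.3% with minoxidil, and 11.3% against 29.2% with PGE2. In Tbx1+/+ carrier Ndufa4l2 was found in 8.84% against 31.2% of the cells with and without Ntrk2. Gata6 also went this way in Tbx1+/+ carrier, where Ndufa4l2 was found in 18.5% against 35.5% of the cells with and without it. Cells of 1 library share their source, and these shares carry no test.

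By subtype, the lower levels were in fibroblast-like, proliferating, and smooth-muscle-like cells and the Col2a1 Sox9 cluster, and were small in pericyte-like cells. Fibroblast-like cells of Tbx1+/+ carrier, mutant carrier, minoxidil, and PGE2 had Shisa3 at 138 CPM, 6.05 CPM, 167 CPM, and 97.1 CPM, Akap12 at 1275 CPM, 368 CPM, 1343 CPM, and 1562 CPM, and Ntrk2 at 343 CPM, 68.0 CPM, 307 CPM, and 283 CPM. All 8 genes were called lower in the mutant carrier in these cells, beside 11.6% of 14358 genes, with a median log2 ratio of -1.83. Tcf21 and Ndufa4l2 were low even in Tbx1+/+ carrier. In fibroblast-like cells without a UMI of Hox paralog groups 5 to 13, Tcf21 was at 10.4 CPM and 0.344 CPM in Tbx1+/+ and mutant carrier. Ndufa4l2 was at 5.65 CPM and 2.16 CPM there. Hematopoietic cells of Tbx1+/+ carrier had these genes at 3.18 CPM and 3.91 CPM. Of the 6 markers that named the cluster, Dcn (decorin) was at 648 CPM in the mutant carrier against 2503 CPM in Tbx1+/+ carrier, Fbn1 (fibrillin) at 121 CPM against 274 CPM, Lum (lumican) at 527 CPM against 936 CPM, and Olfml3 at 128 CPM against 175 CPM. Bgn (biglycan) was at 223 CPM against 180 CPM and Adamts2 at 41.9 CPM against 40.6 CPM, and the part of these markers in the ratios was not tested.

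In proliferating cells all 8 genes were again called lower, beside 7.93% of 13958 genes, from a log2 ratio of -3.17 for Tcf21 to -0.61 for Ntrk2. Tcf21 was at 126 CPM in Tbx1+/+ carrier, 14.0 CPM in the mutant carrier, 140 CPM with minoxidil, and 47.2 CPM with PGE2 there. In the Col2a1 Sox9 cluster 7 of 8 were called lower, beside 14.2% of 12478 genes, and Ebf1 was not, at 378 CPM and 290 CPM in the 2 carrier libraries. Smooth-muscle-like cells had 7 genes with enough UMIs, of which 6 were called lower beside 9.35% of 11158 genes. Among them Shisa3 had 11 UMIs against 84, a log2 ratio of -4.75 with an interval from -5.80 to -3.83, and Ebf1 was the exception at 141 CPM and 177 CPM in the mutant and Tbx1+/+ carrier.

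Pericyte-like cells kept most of these levels. Nr2f2 was at 217 CPM in Tbx1+/+ carrier, 234 CPM in the mutant carrier, 259 CPM with minoxidil, and 256 CPM with PGE2, and Ebf1 at 553 CPM, 540 CPM, 631 CPM, and 654 CPM. Ndufa4l2, which led this cluster, was at 253 CPM, 191 CPM, 225 CPM, and 278 CPM. All 3 stayed in 1 range across the libraries, in contrast to their levels in the whole mesenchyme. Tcf21, Shisa3, and Ntrk2 were called lower in the mutant carrier, 3 of 8 genes beside 2.28% of 11959 genes. In Tbx1+/+ and mutant carrier Tcf21 was at 132 CPM and 80.8 CPM, Shisa3 at 112 CPM and 64.0 CPM, and Ntrk2 at 44.3 CPM and 26.8 CPM, and the median log2 ratio of the 8 was -0.35. At least 3 of the 8 genes were found in 79.3% of mutant-carrier and 92.9% of Tbx1+/+ carrier pericyte-like cells, but in 18.0% and 80.7% of fibroblast-like cells.

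In mesothelial-like cells, with 53 in the mutant carrier, none of the 8 genes was called lower, beside 2.66% of 11185 genes. Gata6 was at 357 CPM and 259 CPM and Tcf21 at 54.8 CPM and 37.7 CPM in Tbx1+/+ and mutant carrier. The intervals were wide, for Ntrk2 from -2.38 to 0.12 on the log2 scale. Myogenic-like cells, compared in no pair because the other libraries held 2 to 8 of them, had the 8 genes at 0.566 to 34.2 CPM in the mutant carrier.

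**Figure D3:**
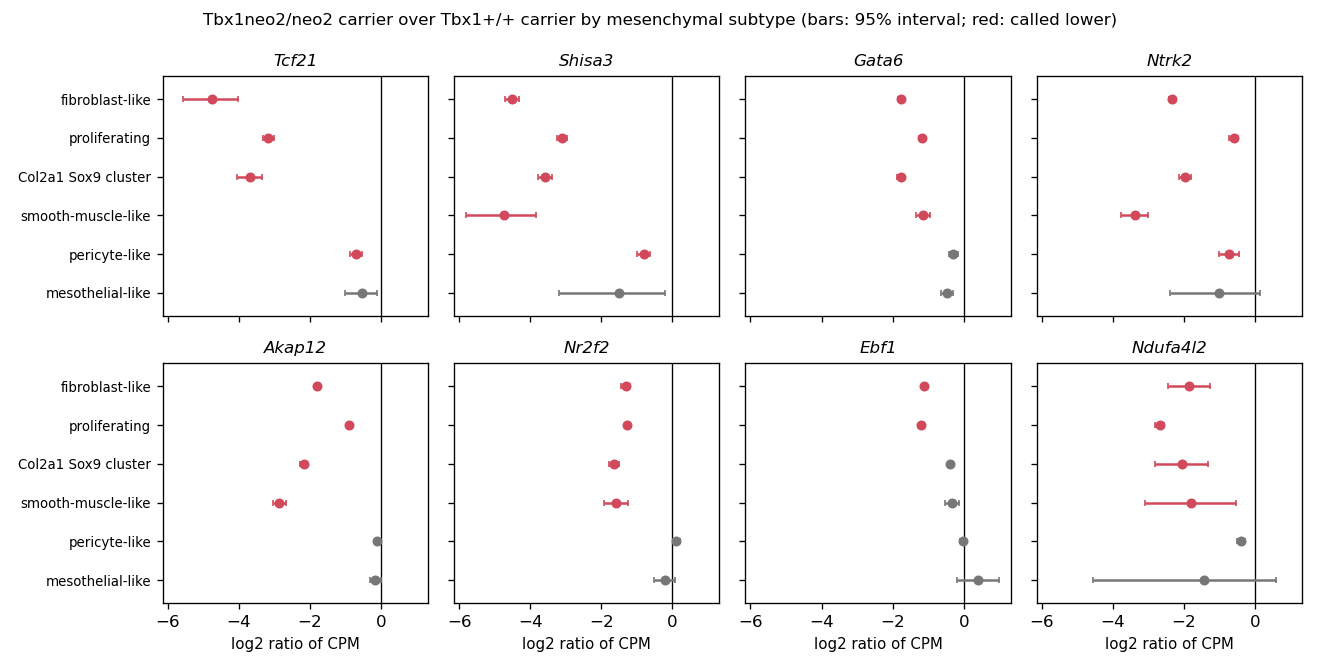
Log2 ratio of mutant carrier to Tbx1+/+ carrier for each gene in 6 mesenchymal subtypes, with 95% intervals from counting error; red points were called lower, grey points were not, and pairs of under 20 UMIs are left out. Fibroblast-like and proliferating cells are red for all 8 genes, while pericyte-like cells are red for Tcf21, Shisa3, and Ntrk2 and lie between -0.81 and 0.11.

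The drug libraries were also set against each other within subtypes. In smooth-muscle-like cells, 53 with minoxidil and 87 with PGE2, 5 of the 7 genes with enough UMIs were called lower with PGE2, beside 5.14% of 10005 genes. With minoxidil and PGE2 Shisa3 was at 95.7 CPM and 8.99 CPM there, Ntrk2 at 160 CPM and 58.8 CPM, and Ebf1 at 246 CPM and 89.5 CPM, while Gata6 was at 207 CPM and 220 CPM. Eln was at 2376 CPM and 5044 CPM and Acta2 at 2409 CPM and 3214 CPM in the same cells, and their part in these values was not tested. In pericyte-like cells Tcf21, Shisa3, and Ntrk2 were called lower with PGE2, 3 of 8 genes beside 1.79% of 11330 genes, with Ntrk2 at 38.5 CPM and 12.5 CPM. Tcf21 and Shisa3 were called lower with PGE2 in fibroblast-like cells (beside 2.58% of 12006 genes) and in proliferating cells (beside 2.28% of 12315 genes). Ndufa4l2 was called higher in fibroblast-like cells, at 3.68 CPM and 10.6 CPM, beside 2.76%. Both levels were low and far below those of pericyte-like cells in the same libraries. Whether RNA or cells of that subtype entered them was not tested. In the Col2a1 Sox9 cluster Shisa3 and Ntrk2 were called lower, beside 2.54% of 10650 genes, and Akap12 higher, at 471 CPM and 983 CPM, beside 2.42%. Tcf21, Shisa3, and Ntrk2 thus had their lower level with PGE2 in several subtypes, and Nr2f2, Ebf1, and Ndufa4l2 in smooth-muscle-like cells.

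In endothelial cells, which were not used in choosing the genes, 3 of the 8 genes were far above the floor read in hematopoietic cells in all 4 libraries: Nr2f2, Ebf1, and Akap12. Nr2f2 was at 84.3 CPM in Tbx1+/+ carrier, 104 CPM in the mutant carrier, 73.3 CPM with minoxidil, and 163 CPM with PGE2, and Ebf1 at 90.0 CPM, 116 CPM, 84.6 CPM, and 75.4 CPM. Akap12 was at 110 CPM, 143 CPM, 162 CPM, and 132 CPM, and none of these 3 was called in the mutant carrier against Tbx1+/+ carrier. Of the 8 genes 1 was called lower in that comparison, beside 3.57% of 11975 genes, and 1 higher, beside 4.03%. Both calls were at low levels. Tcf21, called lower, had 3 UMIs against 44, or 0.466 CPM and 4.73 CPM in the mutant and Tbx1+/+ carrier, beside 0.962 CPM and 3.18 CPM in hematopoietic cells, and is read as background. Ntrk2, called higher, was at 7.93 CPM and 4.30 CPM beside 3.71 CPM and 3.11 CPM in hematopoietic cells. Shisa3 and Ndufa4l2 of endothelial cells were at no more than 3.45 CPM in any library, and at no more than 4.59 CPM in hematopoietic cells. In epithelial cells Akap12 was at 125 to 156 CPM and Tcf21 at no more than 1.43 CPM in any library.

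Cells of the mutant-carrier mesenchyme differed in Hox expression. A UMI of any of the 39 Hox genes, after thinning to 5000 UMIs, was found in 76.0%, 89.5%, 75.5%, and 65.9% of mesenchymal cells of Tbx1+/+ carrier, mutant carrier, minoxidil, and PGE2. Paralog groups 1 to 4 were at 232 to 306 CPM in all 4 libraries. Groups 5 to 13 were at 419 CPM in the mutant carrier and 12.7 to 30.4 CPM in the other 3, and a UMI of these was found in 58.3% of mutant-carrier cells against 3.90%, 6.67%, and 9.13%. Counts split by any Hox gene are given first, and the split by groups 5 to 13, which told the libraries apart, follows.

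Split by any Hox gene, all 8 genes were called lower in the mutant carrier in the 683 and 673 Hox-negative cells of Tbx1+/+ and mutant carrier, beside 9.08% of 13246 genes, and all 8 in Hox-positive cells, beside 11.7% of 15834 genes. In Hox-negative cells Tcf21 was at 94.3 CPM and 18.2 CPM, Gata6 at 215 CPM and 125 CPM, and Ebf1 at 375 CPM and 176 CPM. In Hox-positive cells Tcf21 was at 92.4 CPM and 7.68 CPM, Gata6 at 272 CPM and 93.6 CPM, and Ebf1 at 360 CPM and 156 CPM. The low levels were thus in both strata as called, with Tcf21 and Gata6 of the mutant carrier further down in Hox-positive cells. Hox-negative cells had no Hox UMI among the 5000 drawn, so cells expressing Hox genes can be among them. Hox-positive cells were 76.0% in Tbx1+/+ carrier and 89.5% in the mutant carrier at that depth. They were 92.1% and 96.9% of the cells deep enough for thinning to 10000 UMIs. The levels in cells free of Hox expression were not tested. All 8 were called higher with minoxidil than in the mutant carrier in Hox-negative cells, beside 9.93% of 12918 genes, and all 8 with PGE2, beside 9.58% of 12858 genes. These counts depended on the limits: with Hox called from at least 2 unthinned UMIs 4 were called higher with minoxidil, and at a limit of 2-fold 5 with minoxidil, 3 with PGE2, and 4 lower in the mutant carrier.

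Split by groups 5 to 13, the negative cells numbered 2736 in Tbx1+/+ carrier and 2685 in the mutant carrier, and the positive cells 111 and 3749. In negative cells Shisa3 was at 133 CPM and 25.2 CPM, Ndufa4l2 at 117 CPM and 33.4 CPM, and Akap12 at 551 CPM and 299.9 CPM, and all 8 were called lower, beside 10.1% of 15234 genes, with a median log2 ratio of -1.11. In positive cells Shisa3 was at 97.2 CPM and 5.38 CPM, Ndufa4l2 at 26.7 CPM and 3.96 CPM, and Akap12 at 929 CPM and 235 CPM. There 7 of 8 were called lower, beside 10.2% of 14658 genes, and Ebf1 was at 173 CPM and 134 CPM. The cells called negative held the low levels too, at a smaller distance for Shisa3 and Tcf21. This call depends on depth, so missed positive cells can be among them. For groups 6 to 13, positive cells were 45.7% of mutant-carrier mesenchymal cells with thinning to 5000 UMIs. They were 55.9% of the cells deep enough for 10000 UMIs. In fibroblast-like cells of that library the shares were 37.1% and 51.4%.

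Within that negative stratum the subtypes parted. Fibroblast-like negative cells, 492 in Tbx1+/+ carrier and 1627 in the mutant carrier, had all 8 genes called lower, beside 11.7% of 13395 genes, with Shisa3 at 140 CPM and 7.38 CPM and Ntrk2 at 355 CPM and 58.8 CPM. Tcf21 and Ndufa4l2 were at the low levels given above for these cells. Proliferating negative cells had 4 of 8 called lower, beside 5.1% of 12755 genes, and the Col2a1 Sox9 cluster 3 of 8, beside 4.78% of 11232 genes. In pericyte-like negative cells, 767 and 231, 2 of 8 were called lower, beside 2.52% of 11828 genes: Shisa3 at 112 CPM and 71.8 CPM and Ntrk2 at 44.6 CPM and 23.3 CPM. Akap12 was at 429 CPM and 432 CPM there. Fibroblast-like positive cells, 43 in Tbx1+/+ carrier and 1621 in the mutant carrier, had 6 of 8 called lower, beside 6.94% of 13107 genes.

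Inside the mutant-carrier library the levels were followed by the number of these Hox UMIs per 5000. In proliferating cells Tcf21 was at 40.5 CPM (95% interval 36.2 to 45.2) with 0 such UMIs and 4.35 CPM (2.65 to 6.71) with 1, and Ndufa4l2 at 62.9 CPM and 9.78 CPM. Shisa3 was at 46.4 CPM and 6.95 CPM. These 3 genes were lower from the first Hox UMI on, with no later level above 13.5 CPM. The proliferating cells were mixed. Without integration they fell into a cluster led by the pericyte markers Abcc9 and Kcnj8, with 165 mutant-carrier cells, and another with 946. That other cluster had Hox genes of groups 5 to 13 among its leading genes. The part of this mix in the step was not tested. Gata6 came down step by step, from 131 CPM with 0 to 100.2 CPM, 77.0 CPM, 66.0 CPM, and 47.7 CPM with 5 or more.

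In fibroblast-like cells of the same library there was no step from 0 to 1 Hox UMI for Shisa3, at 7.38 CPM and 7.45 CPM. Tcf21 was at 0.344 CPM and 0.392 CPM. Both were below the 0.962 CPM of hematopoietic cells in that library, so Tcf21 could not show a step. Ndufa4l2 was at 2.16 CPM and 1.31 CPM. Gata6 was at 122 CPM with 0, 133 CPM with 1, and 52.7 CPM with 5 or more Hox UMIs, and Ebf1 at 124 CPM with 0 and 77.0 CPM with 5 or more. Nr2f2 was at 39.4 CPM and 48.6 CPM at the ends, and Akap12 at 319 CPM and 344 CPM. The median depth of the fibroblast-like cells was 11062 UMIs with 0 and 12868 UMIs with 5 or more, and that of the proliferating cells 18840 and 18202.

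**Figure D4:**
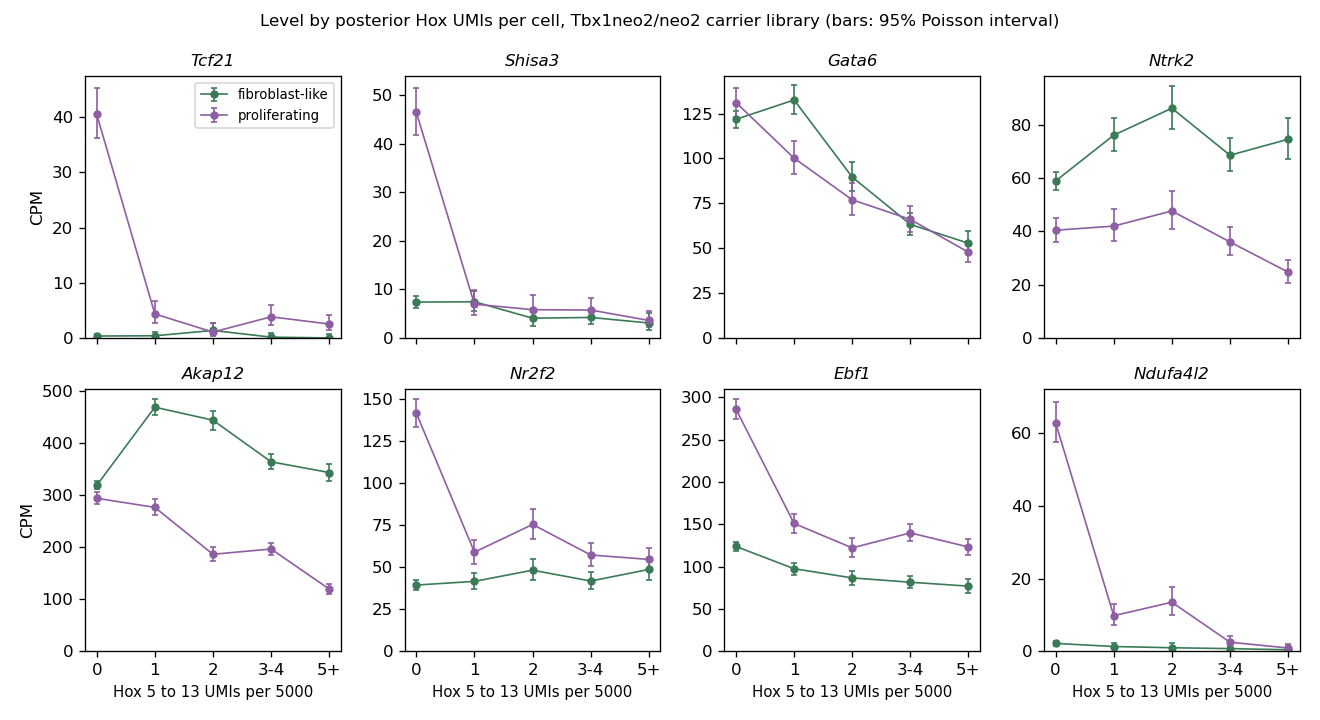
Level in CPM of each gene in fibroblast-like (green) and proliferating (purple) cells of the mutant-carrier library, by the number of UMIs of Hox paralog groups 5 to 13 after thinning to 5000 UMIs, with 95% Poisson intervals. Tcf21, Shisa3, and Ndufa4l2 of proliferating cells are high at 0 and low from 1 on, and Gata6 ends at 47.7 in proliferating and 52.7 in fibroblast-like cells.

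Part of the difference in the whole mesenchyme went with the mix of cells. With each subtype given the share of UMIs that it had in Tbx1+/+ carrier, the median log2 ratio of the 8 genes, mutant to Tbx1+/+ carrier, was -1.02 instead of -1.44. With subtype and any-Hox shares fixed it was -1.05 over 9 strata that covered 87.7% of the UMIs of Tbx1+/+ carrier. With subtype and groups 5 to 13 fixed it was -0.63 over 7 strata that covered 97.4% of them. Strata under 30 cells in either library were left out. Among positive cells only fibroblast-like ones were therefore in. Left out were 826 positive cells of the Col2a1 Sox9 cluster and 835 proliferating ones of the mutant carrier, among others. The value of -0.63 thus compares mostly negative cells. The Hox shares rest on the calls above, so positive cells missed at that depth stay in the negative strata. Ndufa4l2 moved from -2.88 to -0.98 with subtype fixed and -0.59 with groups 5 to 13 as well, and Ebf1 from -1.20 to -0.50 and -0.27. Ntrk2 did not come nearer to 0, at -1.22, -1.62, and -1.34. Shisa3 kept the lowest fixed value, at -2.33 and -1.51, and Tcf21 was at -1.61 and -1.08.

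**Figure D5:**
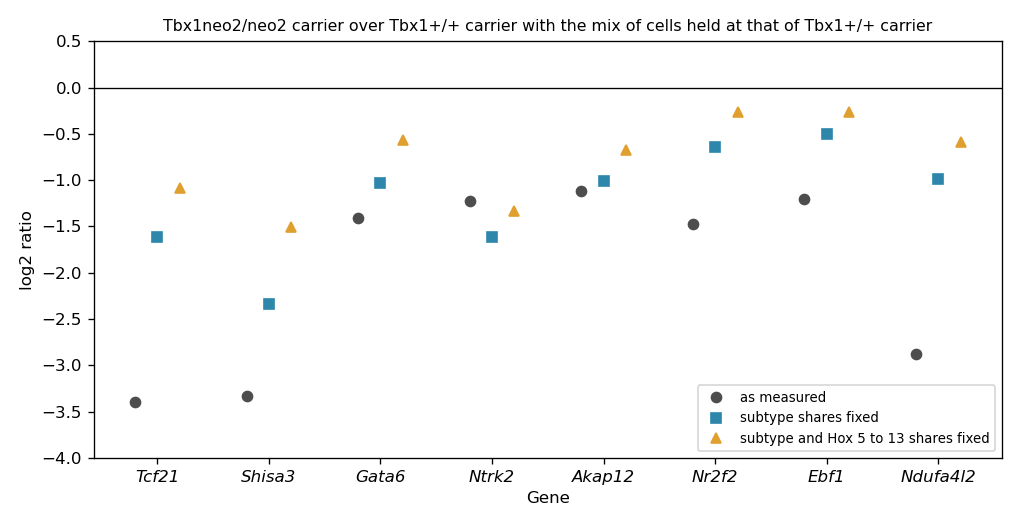
Log2 ratio of mutant carrier to Tbx1+/+ carrier for each gene in all mesenchymal cells as measured (circles), with subtype shares held at those of Tbx1+/+ carrier (squares), and with subtype and Hox 5 to 13 shares held (triangles). The only Hox-positive cells in the triangles are fibroblast-like. All points lie below 0, from -3.39 for Tcf21 as measured to -0.26 for Nr2f2 with both held.

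Over 24 profiles of mesenchymal subtype by library, each of at least 30 cells, the genes most like each of the 8 were ranked among 8279 by Pearson r of log2(CPM + 10). The profiles share libraries, and r is a description. Ndufa4l2 was most like Sh2b3 (0.99), Cpa1 (0.96), and Emcn (0.96), and Akap12 most like Axl (0.97), Cd248 (0.95), and Nid1 (0.93). Ebf1 was most like Cped1 (0.96), Cnrip1 (0.94), and Errfi1 (0.94), and Shisa3 like Car10 (0.95), Fgd5 (0.94), and Acyp2 (0.94).

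Tcf21 was nearest to another of the 8, Nr2f2 (0.88), before Polr2m (0.88) and Akr1b8 (0.88). Among the genes most like Nr2f2 were Tiparp (0.91) and Camk2n1 (0.91). Gata6 was most like Fosb (0.92), Meis2 (0.91), and Glmp (0.91), and Ntrk2 like Col23a1 (0.91), Glt8d2 (0.90), and Mospd2 (0.90). Among the 8 themselves r ran from -0.16 between Tcf21 and Ntrk2 to 0.88, with Gata6 and Akap12 at 0.81 and Gata6 and Ndufa4l2 at -0.03, so the 8 did not follow 1 pattern over subtypes.

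Related genes were counted in all mesenchymal cells where they reached 20 CPM in at least 1 library, mutant against Tbx1+/+ carrier. Of 23 transcription factor genes of embryonic mesenchyme, 10 were called lower and 5 higher, with a median log2 ratio of -0.20. Barx1, a homeobox gene of stomach and pharyngeal mesenchyme, was at 65.4 CPM in Tbx1+/+ carrier and 12.99 CPM in the mutant carrier, and Foxc2, a forkhead gene, at 35.2 CPM and 7.78 CPM. The top ratios were for Msc, a gene of muscle precursors, at 0.719 CPM and 23.1 CPM, and for Tbx5, a gene of the forelimb and heart, at 8.67 CPM and 87.0 CPM.

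Of 9 ligands that support the thymus, 5 were called lower and 1 higher. Penk, the enkephalin precursor, was at 168 CPM and 27.5 CPM, and Cxcl12, the chemokine that draws CXCR4 cells, at 267 CPM and 78.0 CPM, with 359 CPM and 379 CPM in the minoxidil and PGE2 libraries. Wnt5a had the top ratio, at 41.0 CPM and 108 CPM, and Kitl was at 19.4 CPM and 16.2 CPM. Of 10 retinoic acid genes 4 were called lower and 2 higher: Aldh1a2, the main enzyme of retinoic acid synthesis in the embryo, at 171 CPM and 25.8 CPM was lowest, and Crabp2 at 56.3 CPM and 201 CPM and Rarg at 24.1 CPM and 46.6 CPM were highest.

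The related genes of Ntrk2, Akap12, Shisa3, and Ndufa4l2 were counted in the same way. Of 3 neurotrophin genes, with a median log2 ratio of -0.72, Bdnf at 14.4 CPM and 7.88 CPM and Ntrk3 at 27.5 CPM and 16.7 CPM were called lower and Shc1 at 41.7 CPM and 33.6 CPM was not. Of 10 protein kinase A and cAMP genes, Adcy6 at 25.5 CPM and 14.8 CPM and Prkar2b at 22.4 CPM and 14.4 CPM were called lower and none higher, with Akap9 and Prkar2a at the top (log2 ratios 0.47 and 0.29). Of 11 WNT and FGF modulators 1 was called lower, Sfrp1 at 325 CPM and 148 CPM, and 3 higher, with Fgfr2 at 6.59 CPM and 35.8 CPM and Dkk2 at 43.9 CPM and 111 CPM the top pair and Fzd1 (log2 ratio -0.49) next lowest.

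Of 13 hypoxia-response genes none was called lower and 5 were called higher, led by Bnip3 at 17.8 CPM and 47.9 CPM and Higd1a at 120 CPM and 282 CPM, and with Ero1l (-0.23) and Hk2 (-0.21) lowest. Ndufa4l2, a gene of this response in other cells, thus went the other way from the 5 in the pooled mesenchyme. With subtype shares fixed its log2 ratio was -0.98, as given above. Of 11 genes of complexes I and IV, Cox4i2, a hypoxia-linked subunit, was called lower at 63.0 CPM and 14.4 CPM and none was called higher, with Cox6c at -0.16, Ndufa4 at 0.23, and Ndufa5 at 0.31. All of these counts stand beside 11.9% of all genes called lower and 11.9% called higher, and no list was set against others in a test. The limits differ, since related genes had to reach 20 CPM and the genes behind the 11.9% only 20 UMIs over the pair of libraries. The counts pool the mesenchyme, so shifts in the mix of subtypes enter them. Penk, Aldh1a2, and Msc were among the leading genes of the pericyte-like, mesothelial-like, and myogenic-like clusters, whose shares differed. The related genes were not counted with subtype shares fixed.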

How the data were processed

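Droplet single-cell RNA sequencing was run on 4 libraries, 1 per group. Per the labels, the authors aligned reads to mm10 with Cell Ranger 5.0.1 and deposited UMI counts per gene and cell barcode. Barcodes under 200 genes or over 10% mitochondrial UMIs were dropped, and the rest were integrated with Seurat 5.3.0 (2000 variable genes, 30 dimensions, resolution 0.3), and clusters were named from fixed markers. Doublets stayed in, since Scrublet made 0 calls in the mutant carrier. A score above 0.25 was found for 327, 202, 66, and 72 cells in the order Tbx1+/+ carrier, mutant carrier, minoxidil, and PGE2. UMIs were summed per gene, cell class, and library and scaled to 1000000 (CPM), with exact Poisson 95% intervals. Shares of cells were taken after thinning to 5000 UMIs, with Clopper-Pearson intervals. Calls were checked on simulated Poisson counts that held no variation between libraries or cells, so this check does not cover such variation. Levels were also scaled with edgeR 4.0.16 (TMM). The members and lists were chosen with earlier results of these data known. Named are the 8 genes, the 2 lowest and 2 highest of each list by log2 ratio, and the 3 genes most like each member, except for genes not reported here. Promoter sequences and starts are those of RefSeq, and gene positions are from the annotation GENCODE M21 of mm10.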

Additional observations from a re-analysis of the deposited data

Results flagged for a closer look

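Within the drug comparisons with the mutant carrier, Ebf1 and Ntrk2 were called in opposite directions in different subtypes, and the differences between subtypes were not tested. Ebf1 was lower with minoxidil in mesothelial-like cells, at 26.1 CPM in the mutant carrier and 9.33 CPM with minoxidil, a log2 ratio of -1.49. These levels rest on 53 and 61 cells. The minoxidil level was close to that of Ebf1 in hematopoietic cells of that library, given in the last paragraph. Ebf1 was higher with minoxidil in fibroblast-like cells (1.40), smooth-muscle-like cells (0.81), and proliferating cells (1.17). With PGE2, Ebf1 was lower in smooth-muscle-like cells, at 141 CPM and 89.5 CPM in the mutant carrier and with PGE2 (log2 ratio -0.65), and higher in fibroblast-like cells (1.64), the Col2a1 Sox9 cluster (0.86), and proliferating cells (1.06). Ntrk2 was lower with PGE2 in pericyte-like cells, at 26.8 CPM and 12.5 CPM (log2 ratio -1.09), and higher in fibroblast-like cells (2.06), smooth-muscle-like cells (2.14), and the Col2a1 Sox9 cluster (0.62). Eln in smooth-muscle-like cells was at 38.9 CPM in the mutant carrier and 5044 CPM with PGE2, and Acta2 at 1862 CPM and 3214 CPM, so the cells compared there differed in markers of their own class, Eln by far more than Acta2.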

How the results depend on the processing

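No result changed direction under an alternative. Of the alternatives for main results, 102 stayed within the error or count limit and 26 moved. The log2 ratios of single genes, mutant to Tbx1+/+ carrier, were below 0 in 64 of 64 values for all mesenchymal cells and 96 of 96 for Hox-negative cells. The genes were chosen by this contrast, in mesenchyme that includes the Hox-negative cells, so these signs describe the choice and support nothing. Without integration the median with subtype shares fixed was -0.8961, and -0.9067 with subtype and Hox shares fixed. With the members and listed genes used for clustering they were -1.249 and -1.205, and finer clusters (resolution 0.6) gave -1.111 with both fixed. At no more than 5% mitochondrial UMIs the median with subtype shares fixed was -1.087, the median in all mesenchymal cells -1.631, and the shares with at least 3 genes 17.03% (mutant carrier) and 77.63% (PGE2). The mean of per-cell levels gave -1.563. With Hox groups 5 to 13 the median with both shares fixed was -0.6343. Chosen after seeing the data, groups 6 to 13 gave -0.7513, or -0.6566 with thinning to 10000 UMIs, and leaving out the myogenic and Col2a1 Sox9 clusters gave -1.321 in all mesenchymal cells. Strata of positive cells were too small in Tbx1+/+ carrier to enter these Hox values, except fibroblast-like ones of groups 5 to 13. Calling Hox from at least 2 unthinned UMIs left 4 genes higher with minoxidil in Hox-negative cells. A limit of 2-fold left 4 lower in the mutant carrier, 5 higher with minoxidil, and 3 higher with PGE2 in those cells. Shares with at least 3 genes were 92.44%, 39.44%, 93.37%, and 88.45% with thinning to 10000 UMIs and 96.51%, 43.93%, 96.82%, and 95.32% without thinning, in the order Tbx1+/+ carrier, mutant carrier, minoxidil, and PGE2. The cause of these moves was not tested. No paired analysis was possible because each group had 1 library, and for the same reason no replicate could be left out. Depth limits the mesothelial-like, smooth-muscle-like, and endothelial values of genes that had under 10 UMIs.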

Other observations

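Outside the mesenchyme the genes were measured as follows. In epithelial cells Ebf1 was at 44.2 CPM, 54.5 CPM, 45.6 CPM, and 28.7 CPM in Tbx1+/+ carrier, mutant carrier, minoxidil, and PGE2, beside 12.5 CPM, 12.7 CPM, 7.62 CPM, and 3.08 CPM in hematopoietic cells. Gata6 of epithelial cells was at no more than its level in hematopoietic cells in any library, and is read as background. In endothelial cells Gata6 was at 17.1 CPM, 15.2 CPM, 46.7 CPM, and 35.1 CPM in the same order, beside 8.41 CPM, 7.39 CPM, 4.54 CPM, and 1.98 CPM in hematopoietic cells. Clusters left without a name had Akap12 at 174 CPM, 124 CPM, 138 CPM, and 140 CPM and Tcf21 at 13.3 CPM, 7.11 CPM, 21.0 CPM, and 9.02 CPM.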
